A study of Danio rerio with 6 samples.

Results

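Cone photoreceptors end their response to light with a small set of proteins, and 5 genes for such proteins are described here in adult zebrafish retina: the cone opsin kinases grk7a and grk7b, the cone arrestins arr3a and arr3b, and rgs9a. They were chosen by symbol, though with earlier results of these data known, and all 5 were found among the 9211 genes of the authors' deposited table. Retinas of fish homozygous for the stl628 allele of thrb (thrb-/-), the gene for thyroid hormone receptor beta, were compared with wild-type retinas of the same clutches. All fish were 6 months old and of the AB* background. Each genotype had 3 samples, and a sample pooled 2 retinas of a male with 2 of a female. The mutation was present from fertilisation and only adults were taken, so an effect in the mature retina cannot be told apart from one during development.

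After a photon activates a cone opsin, the opsin drives the G protein transducin, which switches on the phosphodiesterase that breaks down cyclic GMP. To stop this, a G protein-coupled receptor kinase of the GRK7 class phosphorylates the opsin and arrestin then binds and caps it. Separately, RGS9 speeds the hydrolysis of GTP by transducin, in a complex with the G beta 5 subunit and a membrane anchor. Zebrafish carry duplicated copies of several of these genes. In zebrafish, arr3a is known from red and green cones and arr3b from blue and ultraviolet cones.

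The deposited values are group means of normalized counts (read counts divided by a size factor for each library) and a log2 fold change of mutant over wild-type with its standard error (SE). No value per sample and no library depth is in the table, so the spread between samples enters only through the SE. A gene is said to have risen or fallen where a Wald test (the log2 fold change over its SE, two-sided, normal distribution) gave an adjusted p under 0.05 after Benjamini-Hochberg adjustment over all 9211 genes. Intervals are 95% intervals from the same SE. Nothing in the labels says how independent the pooled samples were beyond being separate fish. The p-values measure no spread beyond that in the SEs of the authors' fit, which may draw on other genes of similar level. In whole retina, fewer cells of a type and less RNA per cell cannot be told apart.

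Of the 5 shut-off genes, 2 fell in the mutant (grk7a and rgs9a), 1 rose (grk7b) and the arrestins did not pass. Over all listed genes, 1.21% fell and 0.879% rose by the same test. The authors' deposited adjusted p, a test of changes beyond 2-fold, was 1 for each of the 5 members, while 0.076% of all genes passed that test at 0.05. With 4 degrees of freedom and a t distribution in place of the normal one, none of the 5 members passed (3 at an unadjusted p under 0.05), and 1 gene of the whole table did (0.0109%). At an unadjusted p under 0.05, 4 of the 5 members differed by the Wald test, against 8.29% of all genes.

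**Figure D1:**
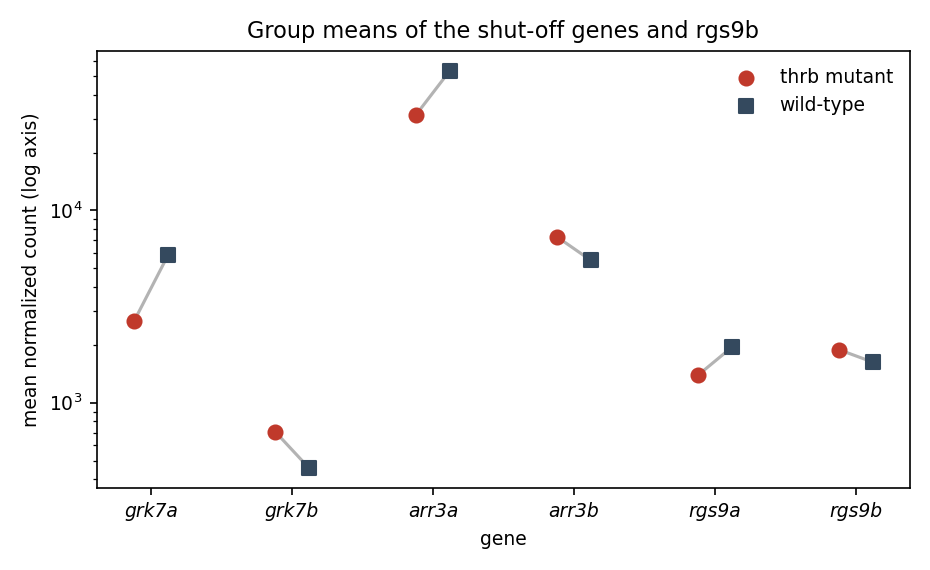
Mean normalized count (log axis) of the 5 shut-off genes and of rgs9b, one red circle for the thrb mutant mean and one dark square for the wild-type mean of each gene, with no error bars, as only means were deposited. The circle lies below the square for grk7a (2660 against 5844), arr3a and rgs9a, and above it for grk7b (708 against 458), arr3b and rgs9b; heights of different genes also depend on transcript length.

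The kinase grk7a fell more than any other member. Its mean normalized count was 2660 in mutant retina, against 5844 in wild-type retina (authors' deposited table). The log2 fold change was -1.14 (SE 0.096, Wald test adjusted p = 2.35e-29), so the mutant stood at 45.5% of wild-type with an interval of 40.0% to 51.8%. By size of the test statistic grk7a ranked 7 among all 9211 genes, and by fold change it was number 27 from the lowest. Among the 739 genes whose mean over both genotypes was within 2-fold of its own, 1 had a lower log2 fold change. The fall was too close to 2-fold for the authors' own test, whose deposited p for grk7a was 0.157 before adjustment.

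The paralog grk7b rose. Its mean normalized count was 708 in mutant retina and 458 in wild-type retina in the authors' deposited table, a log2 fold change of 0.63 (SE 0.17, Wald test adjusted p = 0.0144). That is 155% of the wild-type level, with an interval of 123% to 195%, and number 47 from the highest fold change in the table. The interval for grk7b lay wholly above that for grk7a, which ended at 51.8%.

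The reads of both kinases together were fewer in mutants. Added together, the kinase pair had 3368 normalized counts in mutants and 6302 in wild-type, or 53.4% of the wild-type sum, a value without an error, as it comes from group means. Reads of grk7a per read of grk7b came to 3.76 in mutants and 12.8 in wild-type. These ratios are not ratios of transcript level, since no transcript lengths were used, but their change between genotypes does not depend on length. The percentage of the summed counts does depend on it. The 2 log2 fold changes differed by -1.76 (grk7a minus grk7b, SE 0.19, interval -2.15 to -1.38, adjusted p = 1.22e-16 by a Wald test of the difference over 886 pairs of genes named alike but for a final a and b).

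The cone arrestins showed the same layout of means without passing the test. For arr3a, the authors' deposited table gives 31446 normalized counts in mutants and 53328 in wild-type, with a log2 fold change of -0.76 (SE 0.30). The mutant level was 59.0% of wild-type with an interval of 39.3% to 88.5%, which does not include 100%, yet the adjusted p was 0.25 (unadjusted 0.0107, Wald test). By mean normalized count, which is not corrected for transcript length, it was number 17 of the 9211 genes. Of 35 genes within 2-fold of its mean, 1 had a lower log2 fold change.

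For arr3b, the authors' deposited table gives 7285 normalized counts in mutants and 5499 in wild-type, with a log2 fold change of 0.41 (SE 0.35). Its interval, 82.3% to 213% of wild-type, included both a modest fall and a doubling, and the Wald test adjusted p was 0.98. The difference between the arrestins, arr3a minus arr3b, was -1.17 (SE 0.46, interval -2.07 to -0.27) and did not pass over the 886 pairs (Wald test adjusted p = 0.298, unadjusted 0.0112). By size alone it ranked 5 among those pairs, ahead of most that passed. Summed over both genes, arrestin reads came to 38731 normalized counts in mutants and 58827 in wild-type, 65.8% of the wild-type sum, again without an error.

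The SEs of the arrestins were large for their level. That of arr3a was 3.0 times the median of the 35 genes with a mean within 2-fold of its own, and 2 of those had a larger one. That of arr3b was 3.71 times the median of 448 such genes, of which 6 had a larger one. The same ratio was 1.0 for grk7a, 1.09 for rgs9a and 1.37 for grk7b. For grk7b, 140 of the 3407 genes with a mean within 2-fold of its own had a larger SE. To pass, arr3a would have needed a change of 1.97-fold, arr3b one of 2.22-fold, and grk7a one of 1.24-fold. A difference of 1.59 between the arrestins would have passed among the pairs.

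**Figure D2:**
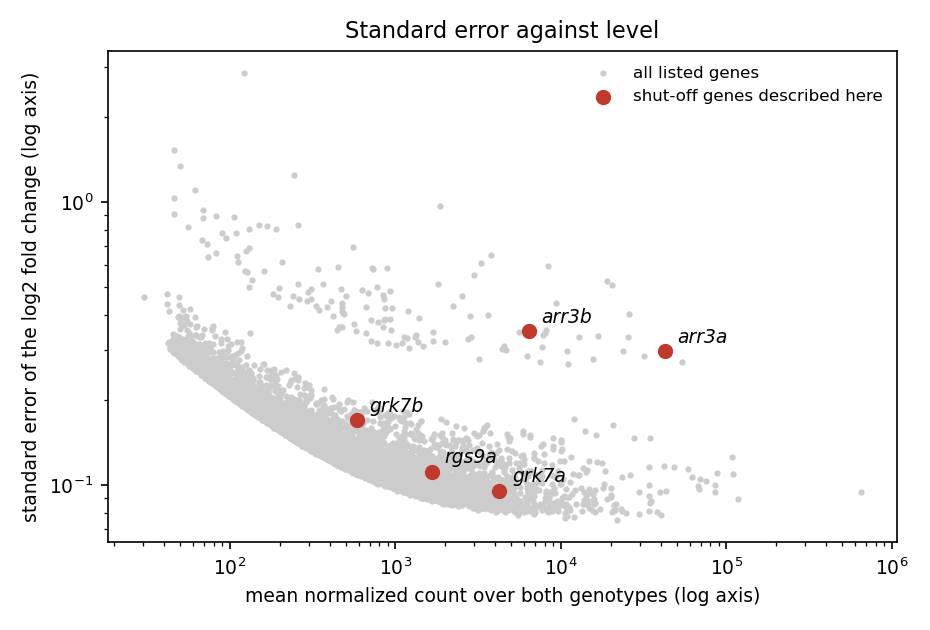
Standard error of the log2 fold change against mean normalized count over both genotypes, both on log axes, with a grey point for each of the 9211 listed genes and a red point for each shut-off gene. The points grk7a and rgs9a lie on the main band, while arr3a (SE 0.30) and arr3b (SE 0.35) lie in a thinner cloud above it. The SE of grk7b (0.17) exceeds the SEs of 95.9% of genes with a mean within 2-fold of its own.

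At high counts the SEs of the whole table fell into separate groups. Of 2048 genes with a mean of at least 1000, the 1996 lower ones ended at 0.183 and the 52 higher ones began at 0.268, with none between. Both arrestins were in the higher group, and the other 3 members were in the lower one or below that mean. The higher group held 2.54% of genes at this level, but 11 of 38 on the shut-off, cone cascade, recovery and opsin lists. Besides the arrestins these were opn1lw1, opn1mw1, opn1mw3, pde6c, gc3, guca1a, guca1e, the rod arrestin sagb and the recoverin rcvrn3. Rod transducin and phosphodiesterase genes were not on those lists. Of these, gnat1, gnb1a, gnb1b, gngt1, pde6a and pde6g were all in the lower group (SE 0.079 to 0.117). The bounds of mean and SE were chosen after the values were seen, and whether 1 sample or a split between samples lies behind them was not tested.

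The transducin accelerator rgs9a fell by a smaller amount. In the authors' deposited table it had 1391 normalized counts in mutant retina and 1945 in wild-type retina, with a log2 fold change of -0.48 (SE 0.11, Wald test adjusted p = 0.00148). The mutant stood at 71.5% of wild-type, with an interval of 61.4% to 83.2%, and rgs9a was number 139 from the lowest fold change. Its paralog rgs9b had 1888 normalized counts in mutants and 1626 in wild-type, in the authors' deposited table, and did not pass (log2 fold change 0.22, SE 0.092, Wald test adjusted p = 0.351).

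The RGS9 paralogs also changed unequally. Their log2 fold changes differed by -0.70 (rgs9a minus rgs9b, SE 0.14, interval -0.98 to -0.42, Wald test adjusted p = 0.000231 over the 886 pairs). The sum of the pair was 3278 normalized counts in mutants and 3570 in wild-type, or 91.8%, against 53.4% for the kinases. These sums have no error and depend on transcript lengths, which were not used, and their contrast was not tested. Reads of rgs9a per read of rgs9b were 0.737 in mutants and 1.2 in wild-type. Of the 12 other RGS genes listed, rgs9b included, none passed the Wald test after adjustment. At an unadjusted p under 0.05, 2 of the 12 differed, against 8.29% of all listed genes. The 12 had a median log2 fold change of 0.098 and a range of 0.029 to 0.36. So rgs9a was the only listed RGS gene with a value below 0. The median over all listed genes was 0.00063.

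In each of the 3 pairs the mean of the gene ending in a was lower in mutants than in wild-type, and that of the gene ending in b was higher, though arr3a, arr3b and rgs9b did not pass. How many of the 886 pairs share this layout of signs was not counted. Among all 886 pairs, 1.92% differed by the same test, and of the 3 pairs here the kinases and the RGS9 genes were among those 17. The kinase pair ranked first by statistic and 2 by size of the difference, where the median absolute difference was 0.127 and the 95th percentile 0.52. Letters were assigned gene by gene and carry no shared meaning: of the 17, the gene ending in a was the lower one in 10. Some pairs, such as hexa and hexb, are not duplicates of one another.

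**Figure D3:**
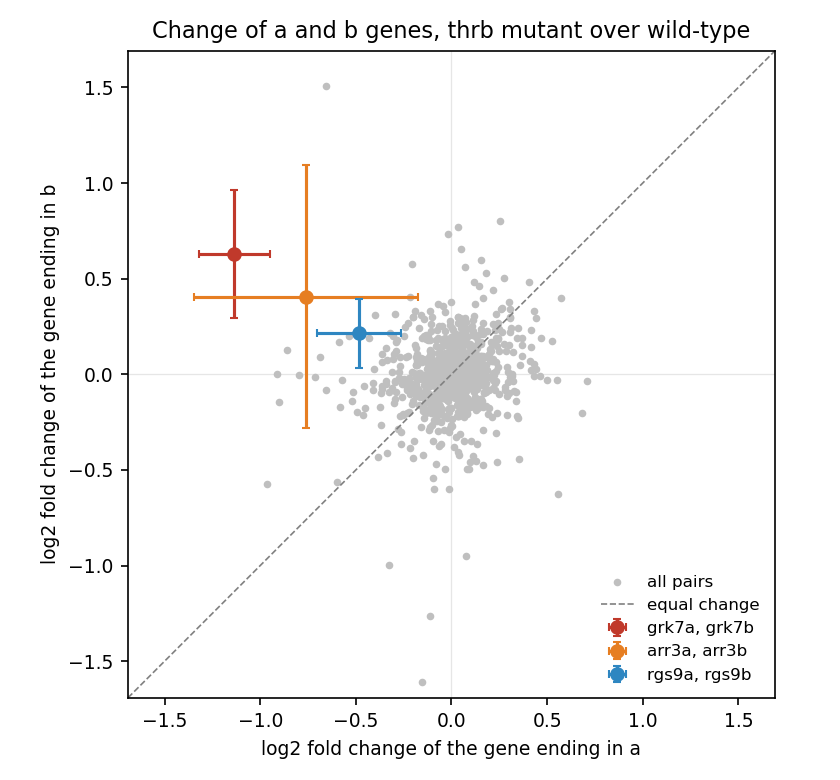
Log2 fold change, thrb mutant over wild-type, of the gene ending in a (horizontal) against that of the gene ending in b (vertical), with a grey point for each of 886 pairs, a dashed line of equal change, and coloured points with 95% intervals for the 3 shut-off pairs. All 3 lie in the upper left, and the kinase pair, at -1.14 and 0.63, is farthest from the line of the 3.

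None of the 10 remaining shut-off genes that were listed passed the Wald test after adjustment. At an unadjusted p under 0.05, 6 differed, on both sides of 0, against 8.29% of all listed genes. Log2 fold changes of the 10 ran from -0.72 to 0.28, with a median of -0.11. The rod opsin kinase grk1a stood at -0.0036 (SE 0.11) and its paralog grk1b at -0.26 (SE 0.12) in the authors' deposited table. Rod arrestins had log2 fold changes of 0.16 (saga, SE 0.097) and 0.22 (sagb, SE 0.27) in the authors' deposited table. Partners of RGS9, the G beta 5 genes, were at -0.25 (gnb5a, SE 0.12) and -0.21 (gnb5b, SE 0.10) in the authors' deposited table, with adjusted p of 0.467 and 0.55 from the Wald test. No row was found for the RGS9 anchor gene rgs9bp or for the recoverin rcvrnb.

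Recoverins, calcium sensors that restrain opsin kinases, were spread to both sides of 0. In the authors' deposited table rcvrna stood at 0.28 (SE 0.094), rcvrn2, listed as rcv1, at -0.21 (SE 0.098), and rcvrn3, listed as zgc:73075, at -0.72 (SE 0.44). Their Wald test adjusted p ran from 0.0978 for rcvrna to 0.82 for rcvrn3.

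Upstream, 2 of 7 listed genes of the cone transduction cascade fell, none rose and 5 did not pass, with a median log2 fold change of -0.20. Over all listed genes, the shares were 1.21% that fell and 0.879% that rose. The 7 are not the whole cascade, as no row was found for cnga3a, cnga3b, cngb3.1 or cngb3.2. Those that fell were gngt2a, a cone transducin gamma subunit, at -0.91 (SE 0.14), and pde6h, the inhibitory phosphodiesterase subunit, at -0.81 (SE 0.089) in the authors' deposited table. The transducin alpha subunit gnat2, used by all cone types, stood at -0.15 (SE 0.10), with 80588 normalized counts in mutants and 89153 in wild-type in the authors' deposited table. Set against gnat2, a scaling added after the values were seen, grk7a was lower by a log2 difference of -0.99 (adjusted p = 1.01e-09) and grk7b higher by 0.77 (adjusted p = 0.0101, Wald tests of the difference over all other genes). On that scaling rgs9a did not pass, at -0.34 (adjusted p = 0.418). Arrestin values against gnat2 were -0.62 for arr3a and 0.55 for arr3b, and neither passed (adjusted p = 0.527 and 0.652, same Wald tests).

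**Figure D4:**
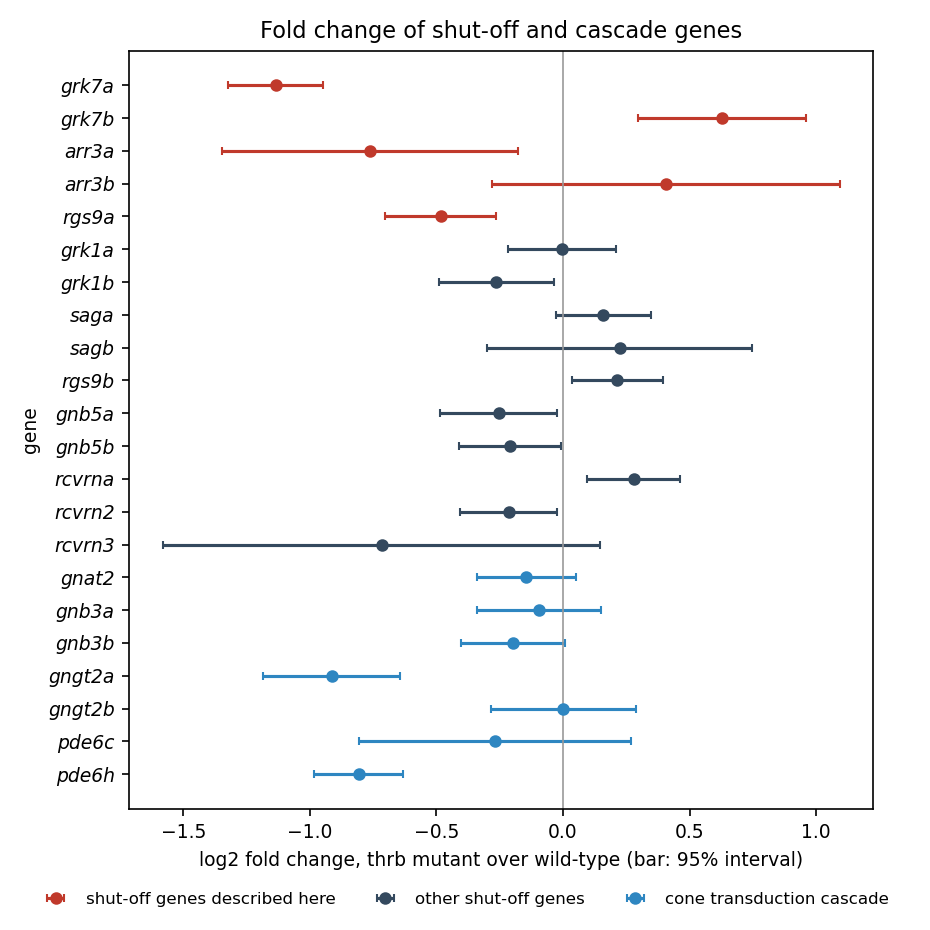
Log2 fold change of thrb mutant over wild-type (points) with 95% intervals (bars) for the 5 shut-off genes described here (red), the other shut-off genes (dark) and the cone transduction cascade (blue), with a line at no change. Among the members, intervals of grk7a, arr3a and rgs9a lie below 0 and that of grk7b above it. Intervals of other shut-off genes exclude 0 too: grk1b, gnb5a, gnb5b and rcvrn2 below it, rgs9b and rcvrna above it. In the cascade, intervals of gngt2a and pde6h lie below 0, and their points (-0.91 and -0.81) lie slightly below that of arr3a (-0.76).

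Genes that restore cyclic GMP and calcium after a response did not pass either. None of the 11 listed passed the Wald test after adjustment, and their median log2 fold change was 0.098. Against 8.29% of all listed genes, 4 of the 11 had an unadjusted p under 0.05. The most abundant were guca1c, a guanylate cyclase activator (-0.21, SE 0.12), and the cyclase gc3 (-0.49, SE 0.31), in the authors' deposited table.

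Among the visual opsins, whose cone members are the substrates of the cone kinases and arrestins, 2 of 9 fell, 2 rose and 5 did not pass. Shares over all listed genes were 1.21% that fell and 0.879% that rose. Red opsins fell to 177 (opn1lw1) and 61.1 (opn1lw2) normalized counts in mutants, against 51643 and 41322 in wild-type, in the authors' deposited table. By the authors' deposited table, the green opsin opn1mw2 rose by 0.42 on the log2 scale (SE 0.11) and the blue opsin opn1sw2 by 0.37 (SE 0.11). Transcripts of thrb itself stood at 12.4% of wild-type.

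Markers of other cells in the tissue give the setting of these values. Of 16 rod markers, 1 fell and 2 rose (median 0.21), of 12 bipolar markers none passed (0.091), and of 8 Müller glia markers none passed (0.056). The rod marker that fell was prph2b (-0.29), and its paralog prph2a (-0.28) did not pass. Whether these genes are confined to rods was not tested. At an unadjusted Wald p under 0.05 the counts were 10 of 16 rod, 1 of 12 bipolar and 1 of 8 Müller glia markers. They were 4 of 5 short-wavelength cone, 2 of 6 green cone, 3 of 3 red cone and 9 of 10 pigment epithelium markers. The share of all listed genes was 8.29% at that threshold, while 1.21% fell and 0.879% rose after adjustment. Short-wavelength cone markers rose in 2 of 5 cases (0.32), green cone markers rose in 1 and fell in 1 of 6 (0.16), and all 3 red cone markers fell (-8.19). The red cone markers were opn1lw1, opn1lw2 and thrb. As thrb is the mutated gene itself, its value is not an independent readout of red cones. Of 10 pigment epithelium markers, 8 fell and none rose (median -0.97), with a sum of 3700 normalized counts in mutants and 7126 in wild-type and none at 0 in either genotype. The part of pigment epithelium content in the values of the shut-off genes was not tested.

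Reads of similar or overlapping genes could limit how firmly some values belong to one gene. Splitting of reads between paralogs could not be checked, and neither the counts nor the sequences behind the pairs were used here. In the gene order of RefSeq (assembly GRCz12tu, not the authors' build), the span of rgs9a overlaps that of gna13b, the span of arr3b that of inppl1b, and the span of arr3a those of mcf2b and an uncharacterised gene. No span overlapped grk7a or grk7b. The library protocol names no step that keeps strand, so whether such reads could be told apart by strand is unknown. Of these partners, gna13b has a row in the authors' deposited table, at a log2 fold change of -0.15 (SE 0.23). No row was found for inppl1b or the uncharacterised gene, and mcf2b was not looked up.

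The genes most like each member were those with the nearest log2 fold change among named genes within 2-fold of its mean, a likeness over only 2 group means. For grk7a these were hexb, a lysosomal hexosaminidase subunit (-0.95), and rd3, a regulator of photoreceptor guanylate cyclase (-0.73), and for grk7b they were rab4b (0.60) and ptpn23b (0.58), by the authors' deposited table. For arr3a, with 34 candidates at its level, the nearest were irbp (-0.43) and ndrg1b (-0.41), in the authors' deposited table. The gene irbp encodes the retinoid-binding protein between photoreceptors and pigment epithelium. These genes lay 0.34 and 0.35 from arr3a, and rd3 lay 0.40 from grk7a. For arr3b the nearest were slc12a5b (0.41) and helz (0.40), and for rgs9a dyrk2 (-0.48) and adrbk2 (-0.48), again in the authors' deposited table.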

How the data were processed

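Poly-A-selected RNA of whole retina was sequenced in 6 samples, 3 per genotype; per the labels' protocols every RNA integrity number exceeded 8.7 and libraries had 12 amplification cycles. The submitters' processing notes name the build danRer10 and, with no order or settings, R 3.4.3, DESeq2 1.18.1, STAR 2.7.2b, cutadapt 1.9.1 and HTSeq 0.9.1. The authors deposited 1 table of 9211 genes, and the larger group mean of each gene was at least 50.0. Its group means are a signal (counts over size factors, averaged), and its log2 fold changes with SEs are those of the authors' fit, per the file headers. The deposited score is the part of a log2 fold change beyond 1, per SE, so the deposited p-value tests a change beyond 2-fold. DESeq2, which the authors used per the submitters' processing notes, draws a gene's spread towards that of genes of similar level except where it lies far above them, which can leave some SEs large; whether it did so here was not tested.

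Wald tests, adjustments and figures were made with Python 3.11.15, scipy 1.17.1 and matplotlib 3.10.9. Whether the normal distribution suits SEs fitted from 3 samples per genotype was not tested. SEs of paralog differences were combined as if independent. Listed symbols without a row were sought through RefSeq synonyms, and all 5 members matched RefSeq symbols. Named genes were the members, their partners and paralogs, and the 2 most alike to each member. Up to 4 genes past the test per phototransduction list (or the 2 most abundant) were also named. Marker lists are given mostly as counts. Members and lists were chosen with earlier results of these data known. Depth per library is unknown, so no counting intervals are given. Alternatives were a t distribution, adjustment over 13700 genes, a minimum mean of 100, centring, a null of 1.2-fold, a ratio of means with a pseudocount of 1, and gnat2 as the base.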

Additional observations from a re-analysis of the deposited data

How the results depend on the processing

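Centring, the ratio of means and gnat2 as the base shifted the members' fold changes by less than their size, so no direction could turn. The median taken off was 0.00063 and the log2 fold change of gnat2 was -0.15, against 0.41 for arr3b, the smallest member value. The ratio of means could not turn a paralog difference either. The other alternatives change only the test or its adjustment. Of 68 recomputed values and counts, 53 kept their side of the threshold, or for counts stayed within 1.5 times, and 15 weakened. Part of the 53 was fixed in advance, so that number does not measure robustness. The arrestins and their difference did not pass at the start. The t distribution, the null of 1.2-fold and the adjustment over 13700 genes can only raise p or adjusted p. With a t distribution (4 degrees of freedom) in place of the normal one, 0 members, 1 listed gene and 0 pairs passed: grk7a (-1.14), grk7b (0.63), rgs9a (-0.48), grk7a minus grk7b (-1.76) and rgs9a minus rgs9b (-0.70) lost their calls, with adjusted p of at least 0.353. As a test of a change beyond 1.2-fold, 1 member (grk7a), 50 listed genes and 1 pair (grk7a and grk7b) passed, so that grk7b (0.63), rgs9a (-0.48) and the RGS9 pair (-0.70) did not. Relative to gnat2, rgs9a (-0.34) did not pass and 2 members did, but the share of all listed genes passing on that scaling was not counted. Calls of the members did not change with adjustment over 13700 genes (the number behind the deposited adjusted p-values), a minimum mean of 100, centring or the ratio of means. No member passed the authors' test at a deposited adjusted p of 0.1 either. No paired analysis was possible because only group means and the authors' fit were deposited, and leaving out each replicate could not be run for the same reason. The SE limits what can be seen for the arrestins, where measured changes under 1.97-fold (arr3a) and 2.22-fold (arr3b) would not have passed.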

Other observations

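Outside the phototransduction genes, 5 other receptor kinases and arrestins were listed, with a median log2 fold change of 0.017. Against 1.21% of all listed genes, 1 of the 5 fell, and 4 did not pass. The one that fell was adrbk2, which RefSeq names grk3, a receptor kinase of broad substrate range. It had 1683 normalized counts in mutants and 2346 in wild-type in the authors' deposited table, a log2 fold change of -0.48 (SE 0.11, Wald test adjusted p = 0.00212), the same to 2 decimals as that of rgs9a. Values of grk4 (0.017, SE 0.15) and of the beta-arrestins arrb1 (0.24, SE 0.15), arrb2a (0.20, SE 0.15) and arrb2b (-0.083, SE 0.097), which cap receptors in many tissues, did not pass; these are from the authors' deposited table.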
